A study of Mus musculus with 18 samples.

Results

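The miR-99, miR-100 and miR-125 family was followed in small RNA sequencing of mouse NIH 3T3 fibroblasts through 7 mature miRNAs: mmu-miR-99a-5p, mmu-miR-99b-5p, mmu-miR-99b-3p, mmu-miR-100-5p, mmu-miR-125a-5p, mmu-miR-125a-3p and mmu-miR-125b-5p. They were chosen by name, as the partners of let-7 in 3 genomic clusters, out of 1900 mature names in the normalized table, and a name with several genomic copies was kept as its copy of highest mean. All 7 were among the 481 miRNAs that reached a normalized value of 10 in 3 or more libraries. There were 18 libraries in 6 groups of 3. They were KDEL cells on 308 kPa with 10 µM blebbistatin, KDEL cells on 308 kPa with 25 µM Y27632, SUN1L cells on 308 kPa, SUN1L cells on 1 kPa, KDEL cells on 308 kPa and KDEL cells on 1 kPa. The SUN1L line carried SS-HA-SUN1L-KDEL, a dominant-negative luminal part of SUN1 that breaks the LINC complex, the link of SUN and nesprin proteins between nucleus and cytoskeleton. The KDEL line carried SS-GFP-KDEL as a control with an intact LINC complex. Both were stable NIH 3T3 TetON lines made by retroviral transduction, the KDEL line being further enriched by fluorescence sorting, and all 6 groups were kept on polyacrylamide gels for 48 h with 1 µg/ml doxycycline. The study compared the lines on each gel, the gels within each line, and inhibitor with no inhibitor on the stiff gel. Blebbistatin inhibits myosin II, and Y27632 is a kinase inhibitor that lowers actomyosin contractility. The replicates were described as biological, and the labels do not say how they were set up, so the p-values speak only to the spread among libraries.

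A microRNA is cut from a hairpin precursor, and 1 or both strands of the hairpin (the 5p and 3p arms) can be loaded into Argonaute, where bases 2 to 8, the seed, select the target mRNAs. The miR-99 and miR-100 family is old in animals and is known in human cells for repressing mTOR. The miR-125 family is the vertebrate counterpart of lin-4, the first microRNA found in Caenorhabditis elegans, and miR-125b is known for repressing p53 in human and zebrafish cells. Members of both families lie next to a let-7 gene, and in Drosophila the 3 are made from a single primary transcript.

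The mature sequences (RefSeq, GRCm38.p6, 7 of 7 matched) are shown to set the seeds beside the values below. miR-125a-5p and miR-125b-5p shared a seed and a pattern of values, as did miR-99b-5p and miR-100-5p. miR-99a-5p had the seed of the second pair but not its pattern. The sequences are written 5′ to 3′ with the seed in capitals.
mmu-miR-99a-5p: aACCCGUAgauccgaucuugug
mmu-miR-99b-5p: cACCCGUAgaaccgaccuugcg
mmu-miR-100-5p: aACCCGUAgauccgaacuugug
mmu-miR-125a-5p: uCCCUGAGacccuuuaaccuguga
mmu-miR-125b-5p: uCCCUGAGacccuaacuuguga
mmu-miR-99b-3p: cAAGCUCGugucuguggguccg
mmu-miR-125a-3p: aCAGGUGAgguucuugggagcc

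The seed ACCCGUA was shared by miR-99a-5p, miR-99b-5p and miR-100-5p, and the seed CCCUGAG by miR-125a-5p and miR-125b-5p. Counted from 1 at the 5′ end, miR-99a-5p and miR-100-5p differed at 1 base (U16A), so their reads can be confused by a single sequencing error or mismatch. miR-99b-5p differed from miR-100-5p at 4 bases (C1A, A11U, C16A and C21U). miR-125a-5p and miR-125b-5p had their first 13 bases in common. The 2 arms of miR-99b had the highest GC content of the 7, at 63.6% each, against 50% in miR-100-5p, miR-99a-5p, miR-125a-5p and miR-125b-5p.

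On GRCm38, miR-100-5p (chr9:41531437-41531458) and miR-125b-5p (chr9:41581940-41581961) lay on the plus strand at the ends of a cluster of 50525 bp with let-7a-2 between them. miR-99a-5p (chr16:77598940-77598961) lay on the plus strand with let-7c-1 and the second copy of miR-125b-5p (chr16:77646279-77646300) in a cluster of 47361 bp. miR-99b-5p (chr17:17830194-17830215), miR-99b-3p (chr17:17830232-17830253), miR-125a-5p (chr17:17830817-17830840) and miR-125a-3p (chr17:17830855-17830876) lay in a stretch of 683 bp with let-7e between them, also on the plus strand. Both copies of miR-125b-5p encode the same mature sequence, and their rows held the same reads to within 0.425% to 4.13%, so a miR-125b-5p value cannot be split between chromosomes 9 and 16. The 3p arms do differ between the copies, and miR-125b-1-3p from chromosome 9 was on average 48.6-fold (SUN1L cells on 308 kPa) to 149-fold (blebbistatin; 112-fold without its library 3) above miR-125b-2-3p from chromosome 16.

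Reads for mature miRNAs recovered from the values numbered, in units of 1e6, 2.77 to 8.49 in 17 libraries and 1.36 in blebbistatin library 3. That library stood apart: its mean Spearman correlation with the other libraries of its group was 0.779, against 0.962 or more in the 5 other groups, and its median value over the 481 tested miRNAs was 15.5, against 39.1 to 212 in the others. Test results are therefore given with and without it. All 6 mesenchymal markers listed were present in every library, led by miR-21a-5p. Of the 6 epithelial markers, miR-141-3p was at the floor value of 1 in 12 of 18 libraries and miR-200c-3p in 1, and the other 4, at means of 23.9 to 138, in none. Of the blood markers, miR-223-3p, miR-144-3p and miR-451a were at the floor in 11, 14 and 3 libraries, of the muscle markers miR-133a-3p in 11 and miR-1a-3p and miR-206-3p in none, and of the neural markers miR-124-3p in 15 and miR-9-5p and miR-128-3p in none. The liver marker miR-122-5p, at a mean of 20.1, was above the floor in every library, and miR-206-3p, miR-9-5p and miR-128-3p had means of 725, 13566 and 2374. The summed value of the 6 epithelial markers was 199 to 434 in SUN1L cells, against 148 to 234 in KDEL cells, on the soft gel. On the stiff gel it was 477 to 661 in SUN1L cells, against 205 to 287 in KDEL cells. The liver marker was 23.8 to 35.3 in SUN1L cells, against 11.7 to 17.7 in KDEL cells, on the soft gel. On the stiff gel it was 23.1 to 36.5, against 4.66 to 15.6. The muscle sum on the soft gel was 334 to 526 in SUN1L cells, against 527 to 643 in KDEL cells. The mesenchymal and neural sums were lower with blebbistatin than in untreated KDEL cells on 308 kPa, without overlap. The part of these values in the results was not tested.

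miR-99b-5p, miR-125b-5p and miR-100-5p were among the miRNAs with the most reads in these fibroblasts. Whether reads stand for molecules alike in different miRNAs was not tested, so levels and ratios between miRNAs compare reads. On the deposited normalized scale, which is proportional to reads within a library, miR-99b-5p averaged 166962 over the 18 libraries (rank 5 of 1900), miR-125b-5p 163104 (rank 7) and miR-100-5p 137459 (rank 12). Without blebbistatin library 3 the order of the first 2 turned, at 156492 for miR-99b-5p (rank 9) and 172437 for miR-125b-5p (rank 6), and miR-100-5p was at rank 13. The mean level of miR-125a-5p was 39556, of miR-99a-5p 18191, of miR-99b-3p 8365 and of miR-125a-3p 629. Together the 7 made up 6.76% to 16% of a library's signal in 17 libraries and 29.4% in blebbistatin library 3. In that library the miR-99 and miR-100 members held 28.1% and the miR-125 members 0.352%. In total RNA from a culture, fewer cells of a kind and less RNA per cell cannot be told apart.

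**Figure D1:**
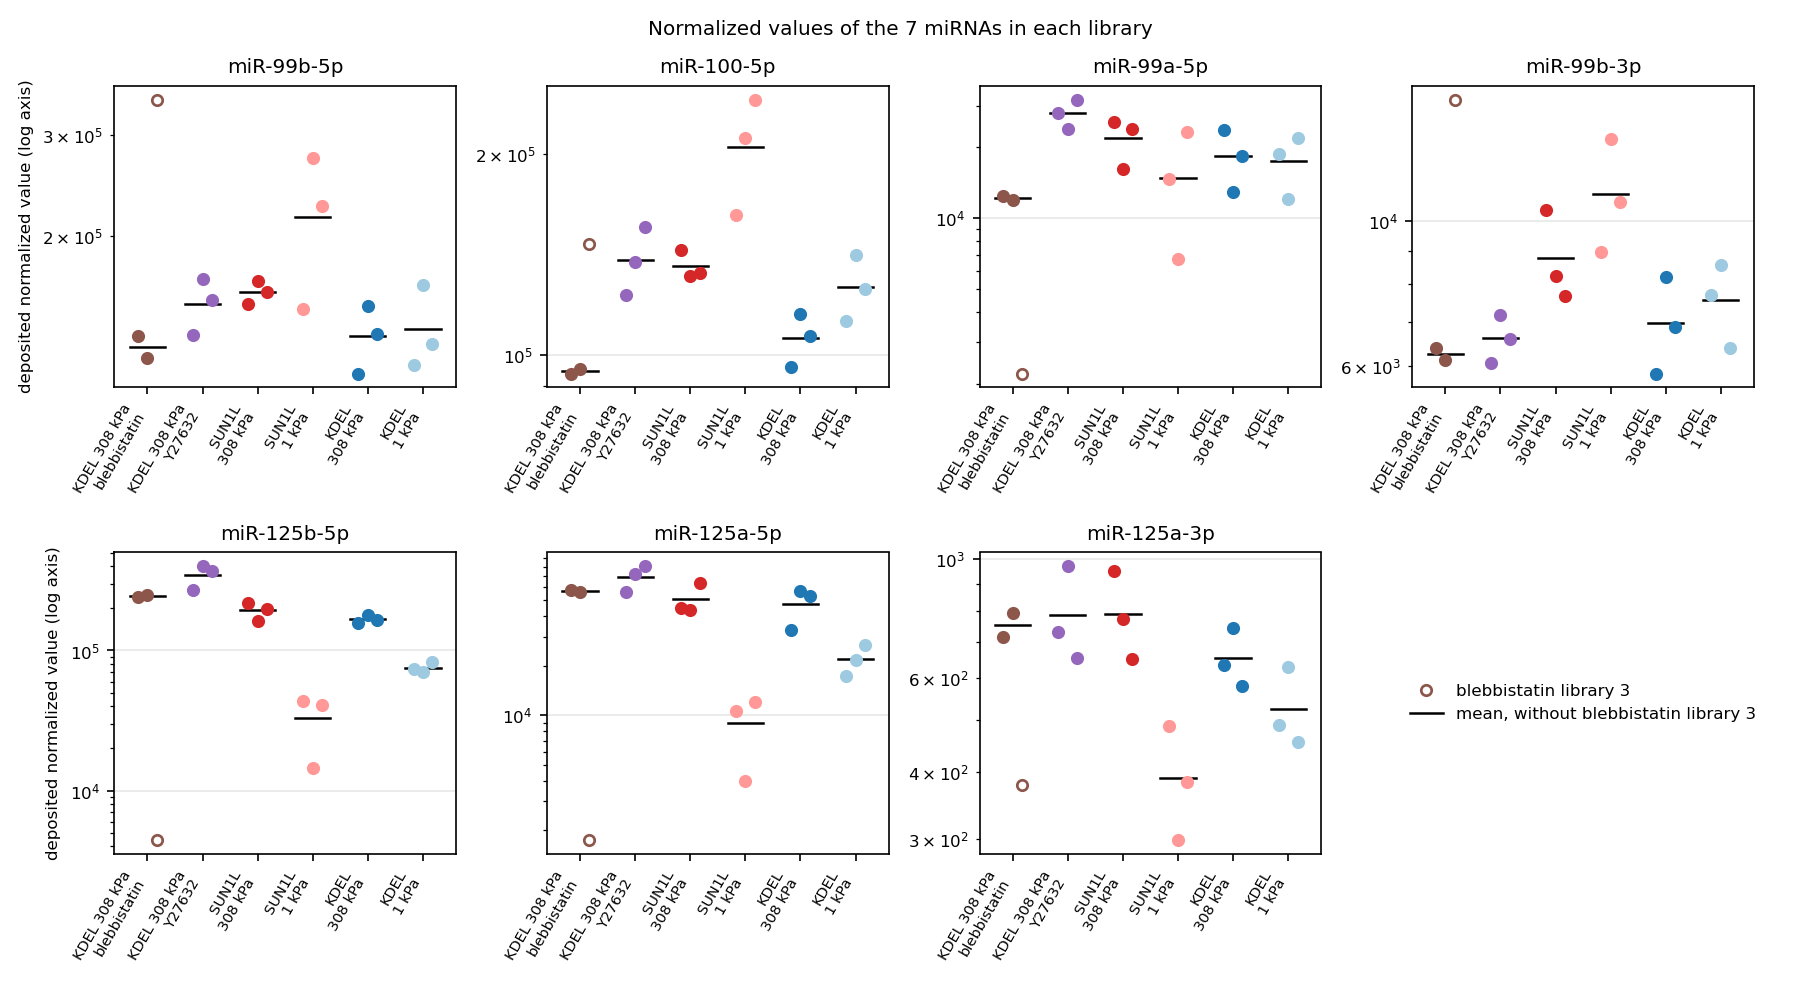
Deposited normalized values (log axis, 1 panel per miRNA) of the 7 miRNAs in every library, by group; points are libraries, bars are group means without blebbistatin library 3, and the open circle is that library. miR-125b-5p and miR-125a-5p were lowest in SUN1L cells on 1 kPa among the other 17 libraries, and miR-99b-5p and miR-100-5p had their highest group means there.

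miR-99b-5p, the more abundant arm of the chromosome 17 hairpin, had normalized values of 149812, 273283 and 225249 in SUN1L cells on 1 kPa, against 119376, 164316 and 130267 in KDEL cells on 1 kPa. On 308 kPa it had 152891, 167275 and 160034 in SUN1L cells, against 115618, 151679 and 135106 in KDEL cells. The inhibitor libraries held 134242, 123120 and 344968 with blebbistatin and 134803, 168369 and 154917 with Y27632. SUN1L cells on 1 kPa thus had the highest group mean with or without blebbistatin library 3, which was the highest of all libraries. Yet without that library every neighbouring pair of groups in the order of means overlapped.

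miR-100-5p behaved much like miR-99b-5p although it comes from another chromosome. Its values were 162071, 211616 and 241380 in SUN1L cells on 1 kPa, all above the 112501, 141396 and 125863 of KDEL cells on 1 kPa. On 308 kPa it had 143674, 131340 and 132758 in SUN1L cells, against 96128, 115095 and 107028 in KDEL cells. With blebbistatin it had 93904, 95319 and 146968, and with Y27632 123294, 138052 and 155879. In the order of group means without blebbistatin library 3, SUN1L cells on 1 kPa stood clear of the next group and the blebbistatin libraries lay below untreated KDEL cells on 308 kPa, while the neighbours between overlapped. Of all tested miRNAs, 12.7% were clear and lower in the same blebbistatin comparison, and the share for the other gap was not counted.

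miR-99a-5p shared the seed but not the pattern. On 1 kPa it ranged over 6741 to 23088 in SUN1L cells, against 12019 to 21935 in KDEL cells. The range on 308 kPa was 16186 to 25538 in SUN1L cells, against 12871 to 23729 in KDEL cells. It was at 12437, 11902 and 2206 with blebbistatin and 27823, 23873 and 31751 with Y27632. No 2 neighbouring groups in its order of means were clear of each other. miR-99b-3p, the other arm of the miR-99b hairpin, went with its 5p arm, at 8964 to 13368 in SUN1L cells and 6392 to 8568 in KDEL cells on 1 kPa, and at 15346 in blebbistatin library 3 against 6373 and 6120 in the other blebbistatin libraries.

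miR-125b-5p showed the widest range of group means among the 7, once blebbistatin library 3 was set aside. It had values of 43648, 14468 and 40509 in SUN1L cells on 1 kPa, against 73197, 70355 and 82671 in KDEL cells on 1 kPa. On 308 kPa it had 218184, 163305 and 197320 in SUN1L cells, against 156316, 179974 and 164217 in KDEL cells. It had 240105, 246852 and 4432 with blebbistatin and 269593, 399618 and 371103 with Y27632. Without blebbistatin library 3 the order of group means was Y27632 (346771), blebbistatin (243478), SUN1L cells on 308 kPa (192937), KDEL cells on 308 kPa (166836), KDEL cells on 1 kPa (75408) and SUN1L cells on 1 kPa (32875). Only the SUN1L and KDEL cells on 308 kPa overlapped among the neighbours in this order. Of all tested miRNAs, 40.7% were likewise clear and higher on 308 than on 1 kPa in KDEL cells. On 1 kPa 41.4% were clear and lower in SUN1L than in KDEL cells, and for the other clear neighbours the share was not counted.

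miR-125a-5p, which lies beside miR-99b on chromosome 17, followed miR-125b-5p and not miR-99b-5p. It had 10690, 3982 and 12105 in SUN1L cells on 1 kPa, against 17352, 21631 and 26571 in KDEL cells on 1 kPa. On 308 kPa it had 44682, 43372 and 63687 in SUN1L cells, against 33172, 56642 and 53124 in KDEL cells. It had 57810, 56484 and 1748 with blebbistatin and 55996, 72380 and 80575 with Y27632. All 6 untreated libraries on 1 kPa lay below all 6 untreated libraries on 308 kPa. Such gaps were common, since 40.7% of all tested miRNAs were clear and higher on 308 kPa in KDEL cells and 65.7% in SUN1L cells. miR-125a-3p was far less abundant, at 299 to 487 in SUN1L cells, against 455 to 629 in KDEL cells, on 1 kPa. The stiff gel gave 650 to 949 in SUN1L cells, against 581 to 742 in KDEL cells. The inhibitor libraries held 379 to 793 (blebbistatin) and 653 to 970 (Y27632).

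On the soft gel, SUN1L cells had more miR-99b-5p and miR-100-5p and less miR-125a-5p and miR-125b-5p than KDEL cells. These differences did not pass the test with all libraries weighted alike and did so without blebbistatin library 3. A fit of only the groups compared, which also lacks that library, called 0 of the 7, beside 3.33% of all tested higher and 15.4% lower. With all 18 libraries in limma (log2 of value + 1, Benjamini-Hochberg over 481 miRNAs), 0 of the 7 were called at an adjusted p under 0.05, and 1, miR-100-5p, had an unadjusted p under 0.05. In that fit 2.7% of all tested miRNAs were called higher and 0% lower, and 10.2% had an unadjusted p under 0.05. The fit shares 1 spread across groups, so the blebbistatin library widened the errors of contrasts in which it has no part, as the plot of fold changes shows.

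Without blebbistatin library 3, 2 of the 7 were called higher in SUN1L cells on 1 kPa and 2 lower, beside 6.65% higher and 37.2% lower of all tested. miR-100-5p rose by a log2 fold change of 0.68 ± 0.21 (SE; limma, Benjamini-Hochberg adjusted p = 0.015; 0.000387 to 0.734 over all settings tried) and miR-99b-5p by 0.62 ± 0.24 (limma adjusted p = 0.043; 0.00288 to 1 over the settings). miR-125a-5p fell by 1.42 ± 0.35 on the log2 scale (limma adjusted p = 0.00382; 0.00164 to 1) and miR-125b-5p by 1.35 ± 0.32 (limma adjusted p = 0.00302; 0.00101 to 1). miR-99b-3p had a log2 fold change of 0.53 ± 0.24 (limma adjusted p = 0.0758), miR-125a-3p of -0.44 ± 0.27 (limma adjusted p = 0.184) and miR-99a-5p of -0.37 ± 0.37 (limma adjusted p = 0.421). The median log2 fold change was -0.37 over the 7 and -0.68 over all 481, so miR-99b-5p and miR-100-5p lay on the other side of 0 from most miRNAs.

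Most tested miRNAs were lower in SUN1L cells on 1 kPa on the deposited scale, and scaling sets where 0 lies. Under median-of-ratios scaling without blebbistatin library 3 the split of calls over all tested miRNAs was 18.5% higher and 20.8% lower. There 5 of the 7 were called, with log2 fold changes of 1.33 for miR-99b-5p (limma adjusted p = 0.00288), 1.40 for miR-100-5p (limma adjusted p = 0.000387), 1.25 for miR-99b-3p (limma adjusted p = 0.00302), -0.71 for miR-125a-5p (limma adjusted p = 0.0233) and -0.64 for miR-125b-5p (limma adjusted p = 0.0179). Quantile scaling called 4 of the 7, these without miR-99b-5p (16.2% of all tested higher, 21% lower), and RPM scaling (to equal reads for mature miRNAs) 5 (9.36% and 36.2%). The sign of these 5 was kept under every setting tried, whereas those of miR-99a-5p and miR-125a-3p turned positive under median-of-ratios and quantile scaling. SUN1L library 2 on 1 kPa had the lowest miR-125b-5p and the highest miR-99b-5p of the untreated libraries. With that library left out as well, miR-125b-5p remained lower at -0.84 (limma adjusted p = 0.00496) and miR-125a-5p at -0.92 (limma adjusted p = 0.0122), beside 26.6% of all tested called lower, and miR-100-5p remained higher at 0.65 (limma adjusted p = 0.0209), beside 6.24% higher. miR-99b-5p lost its call, at 0.43 (limma adjusted p = 0.15), and miR-99a-5p was at 0.11. The SUN1L and KDEL libraries on 1 kPa did not overlap for miR-99b-3p and miR-100-5p (higher; 8.94% of all tested; miR-99b-3p overlapped under RPM scaling) and for miR-125a-5p and miR-125b-5p (lower; 41.4% of all tested).

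On the stiff gel limma called 0 of the 7 between SUN1L and KDEL cells in every setting tried. With all libraries 0 of 7 were called and 0 had an unadjusted p under 0.05 (limma). Of all tested, 3.12% were called higher, 0% lower and 6.03% had an unadjusted p under 0.05. Without blebbistatin library 3 the counts for the 7 were again 0 and 0, beside 3.74% of all tested called higher and 0% lower. The share of all tested at an unadjusted p under 0.05 was not counted in that fit. With SUN1L library 2 on 1 kPa also left out 0 of 7 were called, with 4.78% and 0.624% of all tested, and the 3 other scalings without blebbistatin library 3 called 0 of 7, with 3.74% to 3.95% and 0.624%. The log2 fold changes ran over 0.10 for miR-125a-5p to 0.36 ± 0.21 for miR-100-5p (limma without blebbistatin library 3, adjusted p = 0.623), with a median of 0.27 over the 7 and 0.08 over all tested. The value for miR-125a-5p changed sign with the setting, between -0.14 and 0.25. The groups did not overlap for miR-99b-5p and miR-100-5p, both higher in SUN1L cells, as for 13.7% of all tested, and did overlap for both under RPM scaling.

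Between gels, SUN1L cells differed most, on the deposited scale and among the 7, in miR-125b-5p and miR-125a-5p, both higher on the stiff gel. Under median-of-ratios scaling the largest differences were falls of miR-100-5p, miR-99b-5p and miR-99b-3p, with values given below. On 308 kPa against 1 kPa, with all libraries, 0 of 7 were called by limma and 4 had an unadjusted p under 0.05, beside 3.95% of all tested called higher, 0.208% lower and 41.8% at an unadjusted p under 0.05. Once blebbistatin library 3 was left out, 3 of 7 were called higher and 1 lower, beside 66.9% and 2.91% of all tested. miR-125b-5p rose by 2.70 ± 0.32 on the log2 scale (limma adjusted p = 4.81e-06; 6.46e-08 to 0.341 over the settings), miR-125a-5p by 2.63 ± 0.35 (limma adjusted p = 9.6e-06; 2.72e-07 to 0.315) and miR-125a-3p by 1.03 ± 0.27 (limma adjusted p = 0.00267; 0.00267 to 0.696). miR-100-5p fell by 0.57 ± 0.21 (limma adjusted p = 0.0222; 1.18e-05 to 0.341). The call of miR-125a-3p followed the scale, since its log2 fold change was -0.31 with median-of-ratios and -0.57 with quantile scaling.

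miR-99b-5p was at a log2 fold change of -0.39 ± 0.24 in the same comparison (limma adjusted p = 0.152), miR-99b-3p at -0.32 ± 0.24 (limma adjusted p = 0.237) and miR-99a-5p at 0.70 ± 0.37 (limma adjusted p = 0.101). The median over the 7 was 0.70 and over all tested 1.34. Under median-of-ratios scaling without blebbistatin library 3, where all tested miRNAs split into 26.8% higher and 22.7% lower, miR-99b-5p fell by 1.73 (limma adjusted p = 0.000205), miR-100-5p by 1.92 (limma adjusted p = 1.18e-05), miR-99b-3p by 1.67 (limma adjusted p = 0.000176) and miR-99a-5p by 0.64 (limma adjusted p = 0.0376), while miR-125b-5p rose by 1.36 (limma adjusted p = 3.86e-05) and miR-125a-5p by 1.29 (limma adjusted p = 0.000218). With SUN1L library 2 on 1 kPa also left out on the deposited scale, miR-125b-5p was still higher by 2.19 (limma adjusted p = 2.29e-07) and miR-125a-5p by 2.13 (limma adjusted p = 3.3e-06), beside 57% of all tested. The libraries on 308 and 1 kPa did not overlap for miR-125a-5p, miR-125a-3p and miR-125b-5p (higher; 65.7% of all tested) and miR-100-5p (lower; 3.53%). Under RPM scaling miR-125a-3p overlapped, and miR-99b-5p and miR-99b-3p were clear and lower. The share of all tested that were clear was not counted under RPM scaling.

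In KDEL cells miR-125b-5p was called higher on the stiff gel, in the fit without blebbistatin library 3. The fit of the 12 untreated libraries, which also lacks that library, called 0 of 7, beside 0.208% of all tested higher and 0% lower. With all libraries limma called 0 of 7 and found 0 at an unadjusted p under 0.05, beside 0% of all tested called and 2.7% at an unadjusted p under 0.05. Leaving out blebbistatin library 3, limma called 1 of 7, beside 6.86% of all tested called higher and 0.208% lower. miR-125b-5p rose by 1.15 ± 0.32 on the log2 scale on 308 kPa (limma adjusted p = 0.0423; 3.84e-05 to 1 over the settings), and miR-125a-5p was at 1.11 ± 0.35 (limma adjusted p = 0.0555). The call of miR-125b-5p was lost under median-of-ratios scaling (0.59; limma adjusted p = 0.104), where 1.04% of all tested were called higher and 1.66% lower. Quantile scaling called 2 of 7, miR-125b-5p higher and miR-100-5p lower at -0.61 (limma adjusted p = 0.0404; 0.832% and 1.46%), RPM scaling 1 (8.32% and 0.832%), and the fit also without SUN1L library 2 on 1 kPa 2 (36% and 0.624%). miR-99b-5p was at -0.036 ± 0.24, miR-100-5p at -0.25 ± 0.21 (-0.81 under median-of-ratios scaling), miR-99b-3p at -0.12 ± 0.24, miR-99a-5p at 0.060 ± 0.37 and miR-125a-3p at 0.32 ± 0.27 (-0.24 under median-of-ratios and -0.47 with quantile scaling). The groups did not overlap for miR-125a-5p and miR-125b-5p, both higher on 308 kPa, as for 40.7% of all tested (2.08% lower).

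Whether the gel made a larger difference in SUN1L than in KDEL cells was tested as an interaction. With all libraries 0 of 7 were called and 0 had an unadjusted p under 0.05 (limma; 0.208% of all tested called higher, 0% lower, 2.7% at an unadjusted p under 0.05). Without blebbistatin library 3 the count called was again 0 (0.208% and 0% of all tested), with 2 at an unadjusted p under 0.05: miR-125b-5p at 1.55 ± 0.45 (limma adjusted p = 0.0529) and miR-125a-5p at 1.53 ± 0.50 (limma adjusted p = 0.0623). The share of all tested at an unadjusted p under 0.05 was not counted in that fit. The median over the 7 was 0.64 and over all tested 0.76. With SUN1L library 2 on 1 kPa also left out, miR-125b-5p was called at 1.04 (limma adjusted p = 0.0353; 0.022 to 1 over the settings), beside 5.41% of all tested called higher. In the 12 untreated libraries with a term for the run of library numbers 2 of 7 were called, beside 14.1% of all tested called higher. Array weights gave 1 of 7, beside 13.9%.

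**Figure D2:**
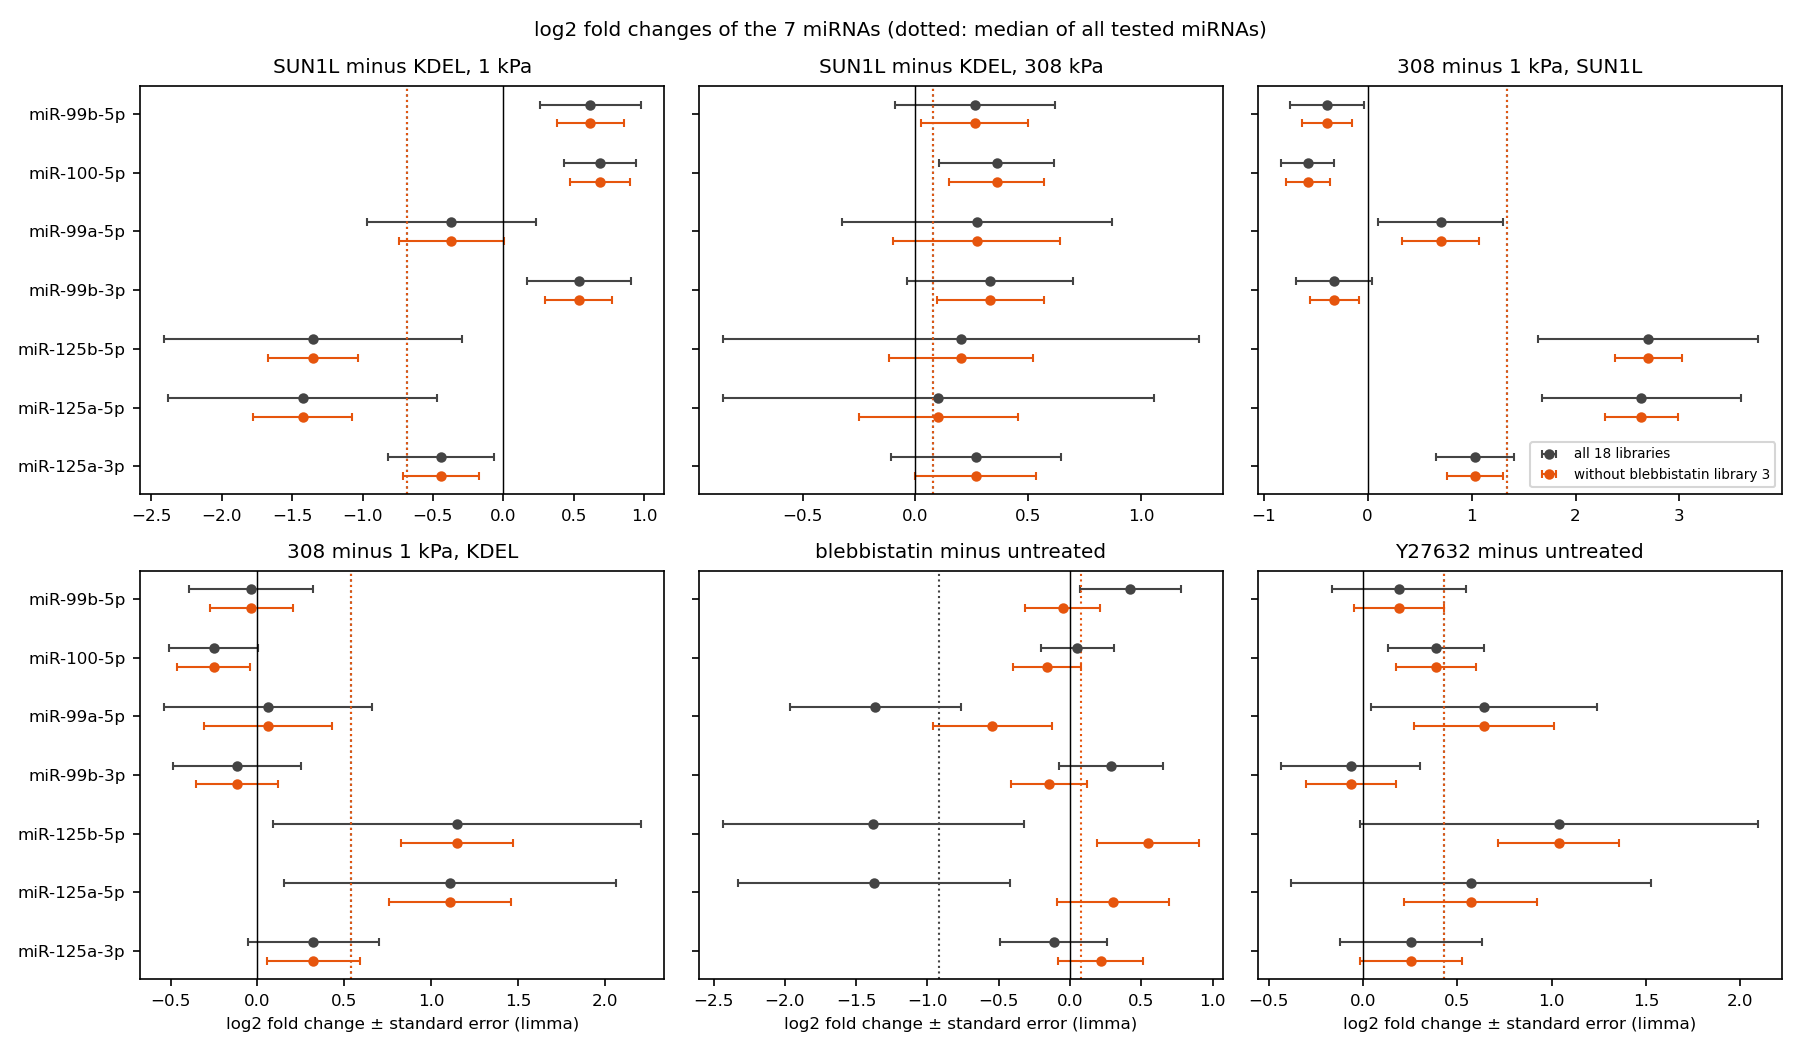
Log2 fold changes with standard errors from limma (x axis) of the 7 miRNAs in 6 comparisons, with all 18 libraries and without blebbistatin library 3; dotted lines are the medians of the 481 tested miRNAs. Between 308 and 1 kPa in SUN1L cells miR-125b-5p was at 2.70 and miR-100-5p at -0.57, and the errors were smaller without the blebbistatin library.

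Blebbistatin and Y27632 were each compared with the same 3 untreated KDEL libraries on 308 kPa, so the comparisons share their control. With blebbistatin 0 of 7 were called and 1, miR-99a-5p, had an unadjusted p under 0.05 (limma, all libraries), beside 0% of all tested called and 8.94% at an unadjusted p under 0.05. miR-99a-5p had a log2 fold change of -1.36 ± 0.60 (limma adjusted p = 0.348) and of -0.54 ± 0.41 without library 3 (limma adjusted p = 0.992), where 0 of 7 were called and 0 had an unadjusted p under 0.05. miR-125b-5p was at -1.38 ± 1.06 with all libraries (limma adjusted p = 0.364) and at 0.55 ± 0.36 without library 3 (limma adjusted p = 0.992), a change of sign that this 1 library made. The median over the 7 was -0.12 with all libraries, against -0.92 over all tested, and -0.052 without library 3, against 0.075 over all tested.

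Blebbistatin library 3 had more of miR-99b-5p, miR-99b-3p and miR-100-5p than libraries 1 and 2 and less of the other 4, miR-99a-5p among them. Its log2 difference from their mean was 1.42 for miR-99b-5p, 1.297 for miR-99b-3p and 0.64 for miR-100-5p, and -5.78 for miR-125b-5p, -5.03 for miR-125a-5p, -2.46 for miR-99a-5p and -0.99 for miR-125a-3p. The median over all tested miRNAs was -2.83. The differences of miR-99b-5p and miR-100-5p stood at percentiles 96.9 and 93.8 of all tested. Blebbistatin libraries 1 and 2 did not overlap untreated KDEL cells on 308 kPa for miR-125b-5p (higher; 17.5% of all tested) and for miR-99a-5p and miR-100-5p (lower; 12.7% of all tested). Under RPM scaling miR-99a-5p and miR-100-5p overlapped, and miR-125a-5p, miR-125a-3p and miR-125b-5p were clear and higher. The share of all tested that were clear was not counted on that scale.

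With Y27632, miR-125b-5p was higher in 3 of 3 libraries than in any untreated library, at a log2 fold change of 1.04, but limma did not call it in either fit. With all libraries 0 of 7 were called and 0 had an unadjusted p under 0.05, beside 0% of all tested called and 1.87% at an unadjusted p under 0.05. Without blebbistatin library 3 the adjusted p of miR-125b-5p was 0.207 (limma; standard error 0.32, unadjusted p = 0.00465), again with 0% of all tested called. It was the only one of the 7 at an unadjusted p under 0.05, and the share of all tested at that level was not counted in this fit. With SUN1L library 2 on 1 kPa also left out, miR-125b-5p was called (limma adjusted p = 0.00537; 4.83e-05 to 1 over the settings), beside 8.94% of all tested called higher. miR-99a-5p was at 0.64 ± 0.37, miR-125a-5p at 0.57 ± 0.35, miR-100-5p at 0.39 ± 0.21, miR-125a-3p at 0.25 ± 0.27, miR-99b-5p at 0.19 ± 0.24 and miR-99b-3p at -0.066 ± 0.24, with a median of 0.39 over the 7 and 0.43 over all tested. The signs for miR-99b-5p, miR-100-5p and miR-125a-3p turned under median-of-ratios and quantile scaling, and those of miR-99b-5p and miR-125a-3p also under RPM scaling. The groups did not overlap for miR-99a-5p, miR-100-5p and miR-125b-5p, all higher with Y27632, as for 32.2% of all tested. Under RPM scaling miR-125b-5p alone of these stayed clear, and the share of all tested was not counted there.

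The contrast of miR-99b-5p with miR-125b-5p was taken as their ratio within each library, which a scaling by 1 factor per library does not alter, while quantile scaling does. The pair was singled out with results of these data known, so the ratio is a description with no test. Its log2 value was 1.78, 4.24 and 2.48 in SUN1L cells on 1 kPa, against 0.71, 1.22 and 0.66 in KDEL cells on 1 kPa. On 308 kPa it was -0.51, 0.035 and -0.30 in SUN1L cells, against -0.44, -0.25 and -0.28 in KDEL cells. It was -0.84, -1.004 and 6.28 with blebbistatin and -0.9999, -1.25 and -1.26 with Y27632. On the soft gel miR-99b-5p thus exceeded miR-125b-5p in every library, by a geometric mean of 7.12-fold in SUN1L cells and 1.82-fold in KDEL cells. The first of these leans on SUN1L library 2, at a log2 value of 4.24. On the stiff gel miR-125b-5p was the more abundant in 10 of 12 libraries, the exceptions being SUN1L library 2, which was near parity, and blebbistatin library 3.

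The group means of this log2 ratio were 2.83 ± 1.27 in SUN1L cells and 0.86 ± 0.31 in KDEL cells on 1 kPa (SD, n = 3 each), a difference of 1.97, which ran over 1.27 to 2.50 as single libraries were left out and was 0.92 under quantile scaling. On 308 kPa they were -0.26 ± 0.28 in SUN1L cells and -0.32 ± 0.10 in KDEL cells, a difference of 0.061 that lay within the spread. The ratio was lower on 308 than on 1 kPa by a difference of -3.09 in SUN1L cells (-2.02 under quantile scaling) and of -1.18 in KDEL cells (-1.20). With Y27632 it was -1.17 ± 0.15, a difference of -0.85 from untreated KDEL cells. With blebbistatin it was 1.48 ± 4.16, a difference of 1.80 that became -0.60 without library 3.

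**Figure D3:**
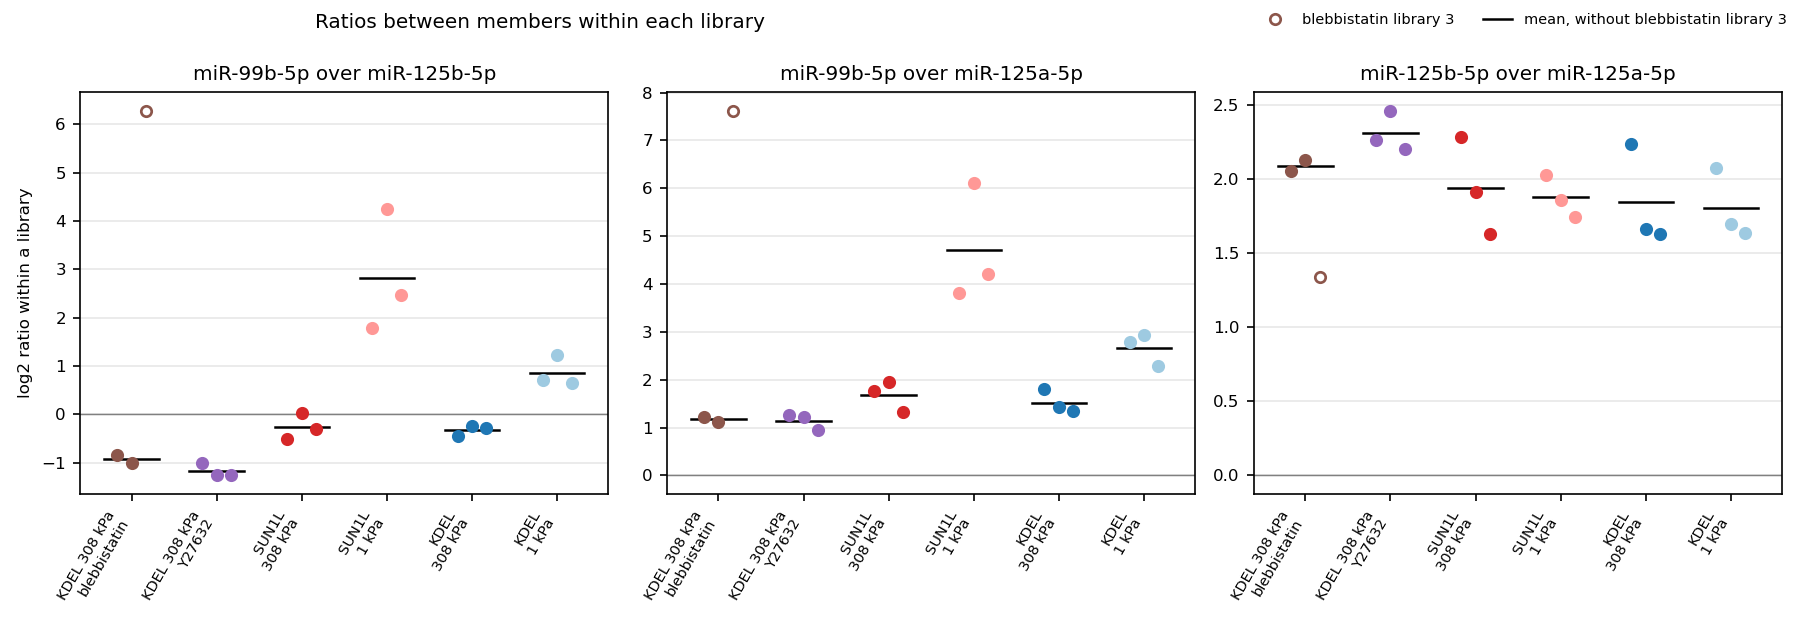
Log2 ratios within each library (y axis) of miR-99b-5p to miR-125b-5p, miR-99b-5p to miR-125a-5p and miR-125b-5p to miR-125a-5p, by group; points are libraries, bars are means without blebbistatin library 3, and the open circle is that library. The ratios of miR-99b-5p to either miR-125 member were highest in blebbistatin library 3 and SUN1L cells on 1 kPa, and the ratio between the miR-125 members had group means within 1.81 to 2.31.

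The same contrast appeared inside the cluster of chromosome 17. The log2 ratio of miR-99b-5p to miR-125a-5p averaged 4.71 ± 1.22 in SUN1L cells, against 2.67 ± 0.33 in KDEL cells on 1 kPa, 1.68 ± 0.32 in SUN1L cells, against 1.52 ± 0.24 in KDEL cells on 308 kPa, and 1.14 ± 0.17 with Y27632. let-7e-5p, which lies between them, kept closer to miR-125a-5p. Its neighbour ratio, miR-125a-5p over let-7e-5p, had group means between -0.034 and 0.95 on the log2 scale, whereas miR-99b-5p over let-7e-5p ran over 2.10 to 4.67. Within families, the ratios of miR-125b-5p to miR-125a-5p and of miR-99b-5p to miR-100-5p were steadier than that of miR-99b-5p to miR-125a-5p. miR-125b-5p over miR-125a-5p had group means of 1.81 to 2.31, although the 2 come from different chromosomes, and miR-99b-5p over miR-100-5p of 0.052 to 0.71 (0.44 at most without blebbistatin library 3). miR-100-5p over miR-99a-5p was less steady. Without that library it ran over 2.32 with Y27632 to 3.94 in SUN1L cells on 1 kPa, with blebbistatin at 2.96 (3.99 with it).

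Across the 17 libraries other than blebbistatin library 3, Pearson's r of log2 values was 0.98 between miR-125a-5p and miR-125b-5p, 0.87 between miR-99b-5p and miR-100-5p (0.71 over all 18) and 0.84 between the arms of miR-99b (0.90). It was -0.56 between miR-99b-5p and miR-125b-5p and -0.35 between miR-99b-5p and miR-99a-5p. With all 18 libraries these were -0.76 and -0.69. For miR-99a-5p it was 0.56 with miR-125b-5p and 0.53 with miR-125a-5p (0.79 and 0.76 over all 18), and -0.044 with miR-100-5p (-0.10). The libraries share groups and the miRNAs share each library's scale, so these values describe the set and carry no test. Likeness to other miRNAs was ranked among the tested miRNAs outside the 7 and the other genes of their clusters. Of those, the most like miR-125b-5p across the 17 libraries were miR-31-5p, miR-501-5p and miR-361-5p (r = 0.99 each). The most like miR-99b-5p were miR-151-3p (r = 0.87), miR-1964-3p (r = 0.87) and miR-674-3p (r = 0.83, and 0.50 with all 18 libraries).

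The ratio of miR-99b-5p to miR-125b-5p moved with a feature of the whole library. The 4 libraries with the highest ratio, blebbistatin library 3 and the 3 of SUN1L cells on 1 kPa, were also the 4 with the lowest median value over the 481 tested miRNAs, at 15.5 and at 78.8, 39.1 and 87.2. The medians of KDEL cells on 1 kPa were 91.5 to 103. On 308 kPa they were 142 to 173 in SUN1L cells, against 145 to 159 in KDEL cells, 160 and 162 in the other blebbistatin libraries, and 189 to 212 with Y27632. The part of this in the differences of the 7 was not tested. GC content was set against the fold changes over the 427 of 481 miRNAs with a RefSeq sequence. Pearson's r was 0.032 for SUN1L against KDEL cells on 1 kPa and -0.081 for 308 against 1 kPa in SUN1L cells. It was -0.14 for 308 against 1 kPa in KDEL cells and 0.089 for Y27632 against untreated KDEL cells. For blebbistatin library 3 against libraries 1 and 2 it was 0.23. The miRNAs are not replicates, and the part of GC content in the results was not tested.

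**Figure D4:**
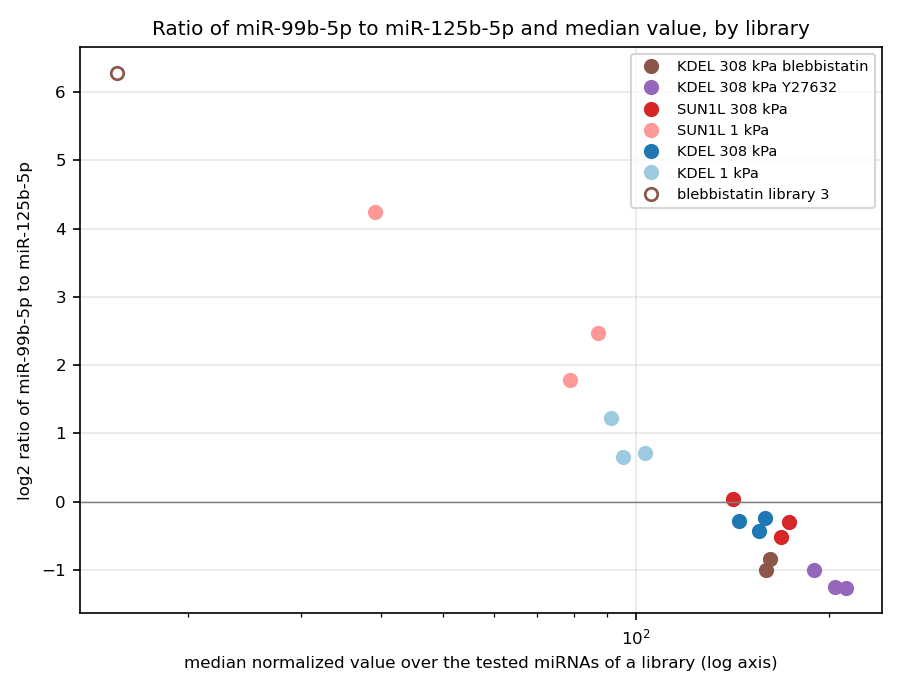
Log2 ratio of miR-99b-5p to miR-125b-5p (y axis) against the median normalized value over the 481 tested miRNAs (x axis, log) in each of the 18 libraries, coloured by group. Blebbistatin library 3 (median 15.5, ratio 6.28) and the SUN1L libraries on 1 kPa lie at the upper left, and the Y27632 libraries (medians 189 to 212) at the lower right.

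The arms of a hairpin are cut from 1 precursor, and their ratio within a library is likewise unaltered by 1 factor per library. On the deposited scale the log2 ratio of miR-99b-5p to miR-99b-3p had group means between 4.19 and 4.53, and blebbistatin library 3 was at 4.49. Under quantile scaling it was lower in SUN1L than in KDEL cells on 1 kPa, by a difference of -0.99, against 0.083 on the deposited scale, whereas that of miR-125a was -1.04 under quantile scaling and -0.98 on the deposited scale. The ratio of miR-125a-5p to miR-125a-3p was 4.39 ± 0.63 in SUN1L cells, against 5.37 ± 0.43 in KDEL cells on 1 kPa, 5.99 ± 0.55 in SUN1L cells, against 6.16 ± 0.41 in KDEL cells on 308 kPa, and 6.47 ± 0.41 with Y27632. With blebbistatin it was 6.33, 6.15 and 2.20. The 5p arm of miR-125a was thus lower relative to its own 3p arm in the groups where the miR-125 members were low.

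miR-125b showed the same against its chromosome 9 arm. The log2 ratio of miR-125b-5p to miR-125b-1-3p was 1.62 ± 0.49 in SUN1L cells, against 2.84 ± 0.19 in KDEL cells on 1 kPa, 3.83 ± 0.15 in SUN1L cells, against 3.55 ± 0.21 in KDEL cells on 308 kPa, and 4.05 ± 0.11 with Y27632. With blebbistatin it was 3.52, 3.91 and -0.37, so that in library 3 the 3p arm had the larger value. miR-125b-1-3p itself had a log2 fold change of -0.13 ± 0.29 in SUN1L against KDEL cells on 1 kPa (limma without blebbistatin library 3, adjusted p = 0.725), beside -1.35 for the 5p arm. It was called higher under median-of-ratios scaling, at 0.58 (limma adjusted p = 0.0319), and under quantile scaling, at 0.82 (limma adjusted p = 0.00558). Part of miR-125b-5p comes from chromosome 16 and cannot be separated.

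Shifts of this kind were common and took both directions. Of 172 hairpins with both arms above the filter, the SUN1L and KDEL libraries on 1 kPa did not overlap in the 5p to 3p ratio for 24.4% (higher) and 22.1% (lower), among the lower ones miR-125a (a difference of -0.98) and miR-125b-1 (-1.22), while miR-99b and miR-125b-2 overlapped. miR-100, whose 3p arm averaged a value of 20.8, was among the higher (1.52). Between 308 and 1 kPa in SUN1L cells the shares were 25% and 34.3%, with miR-125a (1.60), miR-125b-1 (2.21) and miR-125b-2 (1.59) among the higher and miR-100 (-1.75) among the lower. In KDEL cells they were 16.9% and 20.9%, with miR-125b-1 (0.71) and miR-125b-2 (0.84) among the higher and miR-125a and miR-100 overlapping. With Y27632 they were 7.56% each way, with miR-125b-1 (0.50) and miR-99b (0.26) among the higher. Between SUN1L and KDEL cells on 308 kPa they were 8.14% and 5.23%, and miR-99b, miR-125a and miR-125b-1 overlapped.

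**Figure D5:**
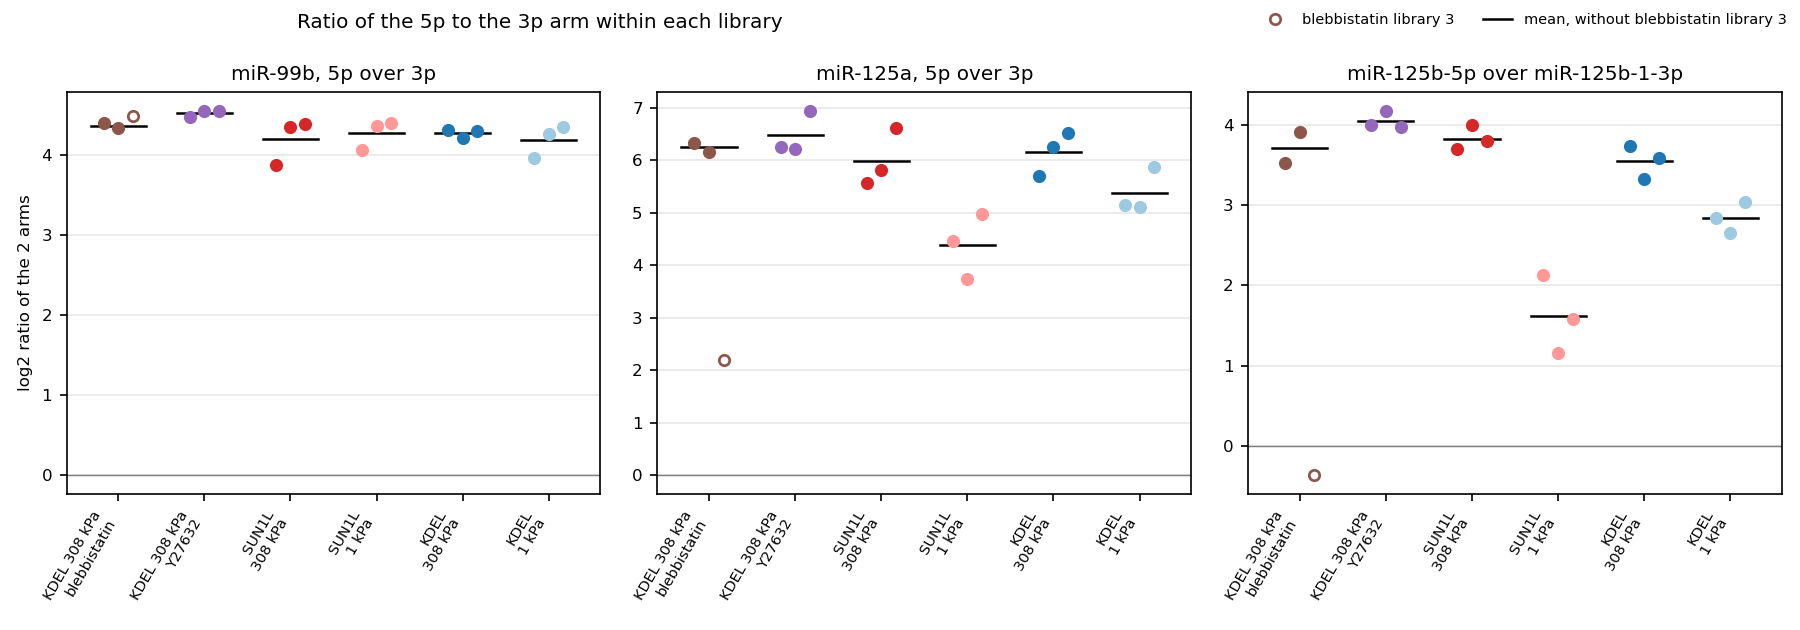
Log2 ratio of the 5p to the 3p arm within each library (y axis) for miR-99b, miR-125a and miR-125b with its chromosome 9 arm, by group; points are libraries, bars are means without blebbistatin library 3, and the open circle is that library. On this scale the miR-99b group means lie between 4.19 and 4.53, and the ratios of miR-125a and miR-125b are lowest in blebbistatin library 3 and SUN1L cells on 1 kPa.

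The other genes of the 3 clusters were 6 let-7 arms and the 4 remaining arms of the hairpins above, and 5 of the let-7 arms were called lower in SUN1L cells on 1 kPa without blebbistatin library 3. let-7 miRNAs repress LIN28 and RAS mRNAs. let-7e-5p, the middle gene on chromosome 17, had values of 11852, 4927 and 9475 in SUN1L cells on 1 kPa, against 14562, 18049 and 27246 in KDEL cells on 1 kPa. With all libraries limma called 0 of these 10 on 1 kPa and found 1 at an unadjusted p under 0.05, beside 10.2% of all tested. It called 2 higher on 308 than on 1 kPa in SUN1L cells, let-7a-5p (limma adjusted p = 0.0417) and let-7c-5p (limma adjusted p = 0.0198), beside 3.95% of all tested. In the fit without blebbistatin library 3, 5 of 10 were lower in SUN1L than in KDEL cells on 1 kPa and 0 higher: let-7a-5p by a log2 fold change of -0.998, let-7c-5p -1.28, let-7c-1-3p -1.23, let-7e-5p -1.23 and let-7e-3p -1.38 (limma adjusted p between 0.00206 and 0.0195), beside 37.2% lower of all tested. Median-of-ratios scaling left 2 of these lower, let-7c-5p (limma adjusted p = 0.0455) and let-7e-3p (limma adjusted p = 0.0159), and quantile scaling 2, let-7c-5p (limma adjusted p = 0.0216) and let-7c-1-3p (limma adjusted p = 0.0329), with miR-125b-1-3p higher in both, while RPM scaling called 5 lower and 0 higher. Of all tested, 18.5%, 16.2% and 9.36% were called higher and 20.8%, 21% and 36.2% lower under the 3 scalings in that order. In SUN1L cells 7 of 10 were higher on 308 than on 1 kPa and 0 lower on the deposited scale, near the 66.9% of all tested called higher. There miR-125b-1-3p was called lower under median-of-ratios scaling, at -0.85 (limma adjusted p = 0.00257), and under quantile scaling, at -0.95 (limma adjusted p = 0.00143), and 2, 1 and 6 of 10 were called higher under median-of-ratios, quantile and RPM scaling. Of all tested, 26.8%, 27.7% and 53% were called higher there under these 3 scalings and 22.7%, 25.4% and 7.48% lower. In the other 5 contrasts 0 of 10 were called in either fit (limma). At most 5 had an unadjusted p under 0.05, in the interaction without blebbistatin library 3. The share of all tested at that level was not counted in that fit. The median log2 fold change of the 10 on 1 kPa was -0.92, beside -0.37 for the 7 and -0.68 for all tested.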

How the data were processed

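Small RNA of 18 cultures was sequenced at HudsonAlpha after NEBNext library preparation. The deposited values are a normalized signal: the authors trimmed 3′ adapters, counted reads by a 5′ end match to miRBase miRNAs in AvadisNGS and scaled each library. Values were whole multiples of 1 factor per library (tolerance 0.001 reads, checked under 1000 reads) with a floor of 1, which in 8 libraries can stand for 0 or 1 read. The labels name mm9, but positions matched GRCm38. Of 2035 entries, 1900 mature names remained.

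log2(value + 1) was fitted with limma (version 3.58.1, R 4.3.3) with an intensity trend, two-sided, over the 6 groups and all 18 libraries, for the 481 miRNAs at 10 or more in 3 or more libraries. Benjamini-Hochberg adjustment covered all 481, and calls were made at an adjusted p under 0.05. The fit was checked on simulated data whose spread was taken without blebbistatin library 3, so the check does not cover a library that far from the rest. Alternatives were scalings, pseudocounts, filters, array weights, fewer groups, each library left out, and, added after the values were seen, 2 libraries left out together. Ratios used log2 values within a library. Tables were handled in Python 3.11.15 (pandas 2.3.3). All 7 members are named, with the other genes of their clusters and, outside both sets, the 3 miRNAs most like each of miR-99b-5p and miR-125b-5p. Members, lists and the paired contrast were chosen with earlier results of these data known.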

Additional observations from a re-analysis of the deposited data

How the results depend on the processing

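The 7 results over the whole set were the counts called, which were 0 in each comparison with all libraries kept, and 32 alternatives were tried for each (30 for the inhibitors) plus 1 chosen after the values were seen, blebbistatin library 3 and SUN1L library 2 on 1 kPa left out together. For SUN1L against KDEL cells on 1 kPa, 3 of 7 were called with array weights, with the 12 untreated libraries alone and with the 2 libraries left out, 4 with those 12 and a term for the run in which library numbers fall, and, without blebbistatin library 3, 5 under median-of-ratios, 4 under quantile and 5 under RPM scaling. For 308 against 1 kPa in KDEL cells, 2 were called with array weights, with only the groups compared, with the run term, under quantile scaling without blebbistatin library 3 and with the 2 libraries left out, and 1 under RPM scaling without it. In SUN1L cells the counts were 4 with array weights, 2 with only the groups compared, 4 with the 12 untreated libraries, 5 with the run term, 6, 6 and 5 under the 3 scalings in the order above without blebbistatin library 3, and 4 with the 2 libraries left out. For the interaction they were 1 with array weights, 2 with the run term, 1 under RPM scaling without blebbistatin library 3 and 1 with the 2 libraries left out, and for Y27632 4 with array weights and 1 with the 2 libraries left out. With only the groups compared 0 of 7 were called for SUN1L against KDEL cells on 1 kPa, beside 3.33% of all tested higher and 15.4% lower. With the 12 untreated libraries 0 of 7 were called between gels in KDEL cells, beside 0.208% and 0%. Of all tested miRNAs, 6.44% were called higher and 30.1% lower on 1 kPa with array weights, 6.24% and 33.1% with the 12 untreated libraries, and 6.86% and 41.2% with the run term. Between gels they were 44.9% and 2.08% (array weights), 24.5% and 0.416% (only the groups compared) and 19.8% and 0.624% (run term) in KDEL cells, and 61.7% and 3.33%, 55.9% and 1.87%, and 68.2% and 2.7% in SUN1L cells, with 64.4% and 2.49% for the 12 untreated libraries. Without blebbistatin library 3 they were, between gels in SUN1L cells, 26.8% and 22.7% under median-of-ratios, 27.7% and 25.4% under quantile and 53% and 7.48% under RPM scaling. For the interaction they were 13.9% and 0.208% with array weights, 14.1% and 0% with the run term and 8.11% and 0.832% under RPM scaling without blebbistatin library 3. For Y27632 they were 41% and 0.832% with array weights, whose estimation stopped short of its convergence tolerance. Other scalings, pseudocounts of 0.5 and 10, no filter and a filter at 100, with all libraries kept, left the 7 counts at 0. Leaving out single libraries gave 0 to 4 called on 1 kPa, 0 to 1 between gels in KDEL cells and 0 to 4 in SUN1L cells, the higher value each time without blebbistatin library 3. The SUN1L against KDEL count on 308 kPa and the blebbistatin count were 0 throughout.

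Log2 fold changes whose sign turned are given here, and in each pair of values the first is with and the second without blebbistatin library 3. For SUN1L against KDEL cells on 1 kPa, miR-99a-5p was at 0.34 and 0.35 under median-of-ratios scaling, 0.48 and 0.48 under quantile scaling, 0.039 with array weights, 0.11 with the 2 libraries left out and -0.77 to 0.11 as single libraries were left out. miR-125a-3p was at 0.26 and 0.27 with median-of-ratios scaling, and 0.43 and 0.43 under quantile scaling. On 308 kPa miR-125a-5p was at -0.086 with array weights and ran over -0.14 to 0.25 as single libraries were left out. Between gels in KDEL cells, miR-99a-5p was at -0.45 and -0.50, -0.56 and -0.55, and -0.16 and -0.16 under median-of-ratios, quantile and RPM scaling, and miR-125a-3p at -0.19 and -0.24 with median-of-ratios scaling, and -0.47 and -0.47 under quantile scaling. Single libraries moved miR-99a-5p over -0.19 to 0.29, miR-99b-5p over -0.13 to 0.096 and miR-99b-3p over -0.24 to 0.0036. In SUN1L cells miR-99a-5p was at -0.60 and -0.64 with median-of-ratios scaling, and -0.77 and -0.75 under quantile scaling, and miR-125a-3p at -0.27 and -0.31, and -0.57 and -0.57. For the interaction they were at -0.15 and -0.14, and -0.21 and -0.20 (miR-99a-5p), and at -0.079 and -0.075, and -0.093 and -0.10 (miR-125a-3p).

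For blebbistatin, miR-125a-3p was at 0.95 and 0.18 under median of ratios, 1.07 and 0.27 under quantile and 0.58 and 0.42 under RPM scaling. Without blebbistatin library 3, miR-99b-5p was at -0.083 and -0.034 under median-of-ratios and quantile scaling, miR-99b-3p at -0.18 and -0.0069, miR-100-5p at -0.19 and -0.12, miR-125a-5p at 0.27 and 0.35 (0.50 under RPM scaling) and miR-125b-5p at 0.52 and 0.88 (0.75 under RPM scaling). With array weights and with the 2 libraries left out, miR-99b-5p was at -0.042 and -0.052, miR-99b-3p at -0.16 and -0.15, miR-100-5p at -0.21 and -0.16, miR-125a-5p at 0.15 and 0.30, miR-125a-3p at 0.19 and 0.21 and miR-125b-5p at 0.51 and 0.55. As single libraries were left out, miR-99b-5p ran over -0.052 to 0.69, miR-99b-3p -0.15 to 0.52, miR-100-5p -0.16 to 0.16, miR-125a-5p -2.22 to 0.30, miR-125a-3p -0.32 to 0.21 and miR-125b-5p -2.35 to 0.55. For Y27632, miR-99b-5p was at -0.22 and -0.25 under median-of-ratios, -0.51 and -0.51 under quantile and -0.19 and -0.19 under RPM scaling, miR-100-5p at -0.021 and -0.048, and -0.21 and -0.22 under the first 2 of these, and miR-125a-3p at -0.15 and -0.18, -0.18 and -0.17, and -0.13 and -0.13. Single libraries moved miR-99b-3p over -0.19 to 0.059. The cause of these turns was not tested.

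No paired analysis was possible because the labels carry no replicate numbers, and replicates are numbered in the order of deposition. The run of library numbers, each run with 1 library of every untreated group, was fitted as a term instead, with the counts given above, and the labels do not say whether a run was prepared together. edgeR and DESeq2 were not run because the values are scaled and their floor of 1 is not a whole number of reads. With 3 libraries a group, a spread shared over groups and 1 library far from the rest, a count of 0 called does not show that levels were alike. The value of 1 read was recovered for each library, but counting error is small beside the spread for the abundant members.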
